A study of Mus musculus with 6 samples.

Results

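Calcineurin is the calcium-activated phosphatase that links calcium signals to gene transcription in heart muscle. It is built from a catalytic A subunit, encoded by Ppp3ca, Ppp3cb or Ppp3cc, and a calcium-binding regulatory B subunit, encoded in the heart by Ppp3r1, and it is switched on by calmodulin. Its best-known substrates are the NFAT transcription factors, which it dephosphorylates so that they enter the nucleus and bind DNA together with partners such as GATA4 and AP-1. Regulators of calcineurin (Rcan proteins) bind the phosphatase and inhibit it, and Rcan1 is itself a transcriptional target of NFAT, so its transcript is widely used as a readout of the pathway. In mice, forced calcineurin activity in cardiomyocytes produces cardiac hypertrophy.

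The genes described here are the 9 rows of the deposited gene table named Rcan1, Rcan2, Ppp3ca, Ppp3cb, Ppp3r1, Nfatc1, Nfatc2, Nfatc3 and Nfatc4, out of 55401 genes. All 9 were found and all 9 had enough counts to be tested. Poly(A) RNA was sequenced from 2 groups of C57BL/6 mouse hearts, with 3 animals given angiotensin II (Ang II), a vasoconstrictor peptide that produces cardiac hypertrophy in mice, and 3 control animals. All were 6 to 8 weeks old, and RNA came from heart tissue, so cardiomyocytes and the other cells of the heart were measured together. The dose, route and duration of Ang II, the sex of the animals and what the control animals received are not given in the sources used here. The comparison asks which transcripts of this pathway differ in hearts of Ang II animals.

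Libraries held 51202916 to 63564869 estimated counts in the Ang II group and 53583726 to 57844780 in the control group. The extraction protocol in the labels speaks of adipose tissue in 1 place, while cardiomyocyte markers were abundant in every heart, with a summed level of 12469 to 15444 FPKM (fragments scaled to transcript length and library size) in Ang II and 9304 to 14390 FPKM in control hearts over 8 genes. Lymphocyte markers summed to at most 0.753 FPKM in Ang II and 1.13 FPKM in control hearts, with Cd3e, Cd3g, Cd8a and Ms4a1 at 0 in at least 1 library. Ang II replicate 1 stood apart. Its chi-square per degree of freedom against Ang II replicates 2 and 3 was 483 and 430, against 34.1 between those 2 libraries. Among control hearts, replicate 1 lay farther off as well, at 216 and 108 against replicates 2 and 3, with 61.9 between those 2. Mitochondrially encoded genes took 35.8% to 37.4% of the counts in Ang II hearts, against 47.6% in control replicate 1 and 37.3% and 41.3% in control replicates 2 and 3. Abundant pseudogenes, counted as mitochondrial copies, took a further 16.2%, 12.1% and 11.9% in Ang II hearts 1, 2 and 3. In control hearts they took 13.2% to 17.2%. Ang II replicate 1 had the lowest CPM of the 6 hearts at 31.6% of the tested genes, and 4 of the 9 genes described here were among them. The fibroblast markers of Ang II replicate 1 summed to 33.2 FPKM, against 95.4 and 97.0 FPKM in the other Ang II hearts and 64.3 to 97.4 FPKM in control hearts. Its macrophage markers summed to 135 FPKM, against 69.5 and 82.9 FPKM in the other Ang II hearts and 64.7 to 97.0 FPKM in control hearts. For each of the 9 genes the log2 change is given with and without this heart.

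Rcan1 had the highest fold of the 9 in Ang II hearts, 2.52-fold above control, while the 3 calcineurin subunit genes and the 4 NFAT genes lay between 0.70-fold and 1.15-fold. Rcan2 was level with control in 2 of the 3 Ang II hearts and low in the third. At an adjusted p under 0.05 in edgeR's quasi-likelihood test 0 of the 9 genes passed, where the share over all 16759 tested genes was 0.0358%. Rcan1 was the 1 gene of the 9 with an unadjusted p under 0.05, as 7.51% of all tested genes had. DESeq2 called 1 of the 9, again Rcan1, with 1.65% of all genes called. Voom with quality weights also called Rcan1 alone of the 9, with 2.08% of all genes called. It gave Ang II replicate 1 a weight of 0.148, against 0.960 to 2.90 for the other hearts. Limma on FPKM called 0 of the 8 genes that passed its filter, with 0.0248% of all genes called. In CPM, the count scaled to the library size as normalised by edgeR, 2 of the 9 genes, Rcan1 and Ppp3ca, had every Ang II heart above every control heart, which was so for 7.97% of all genes. None of the 9 had every Ang II heart below every control heart, as 9.21% of all genes did. The median log2 change of the 9 was -0.074, beside 0.0092 over all tested genes.

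**Figure D1:**
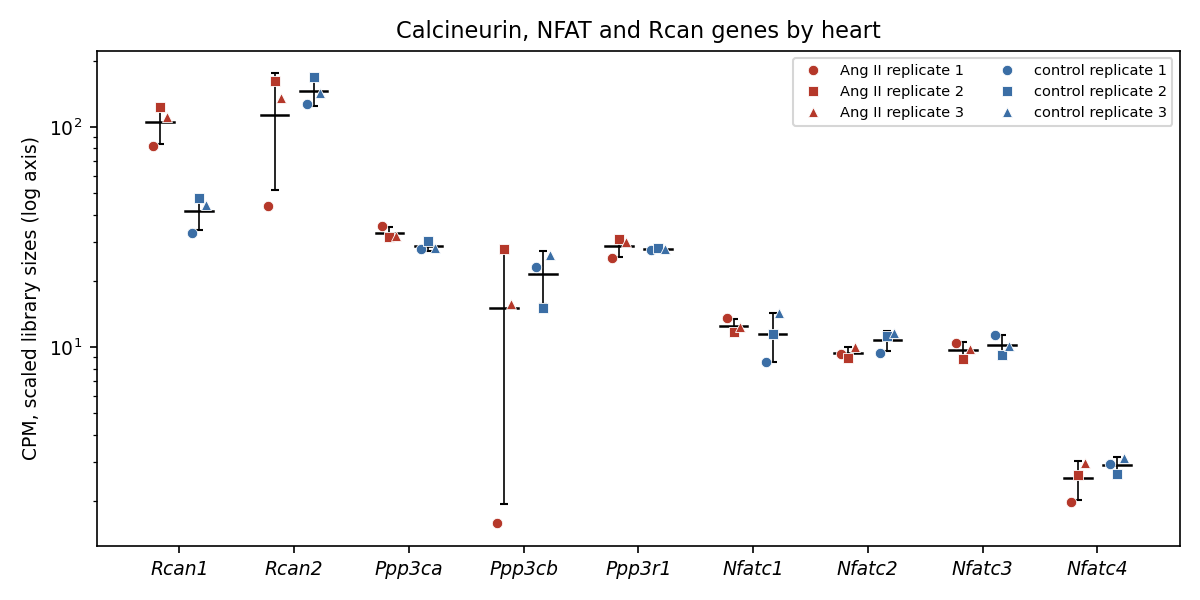
CPM of the 9 genes in each heart on a log axis, with Ang II hearts in red left of control hearts in blue; bars show the mean and error bars the SD of 3 hearts. The Ang II hearts lie above the control hearts for Rcan1 (81.8 to 123 against 33.2 to 47.8 CPM), and Ang II replicate 1 (circle) lies far below the others for Rcan2 and Ppp3cb.

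Rcan1, the feedback inhibitor, lies on the minus strand of GRCm38 chromosome 16 from 92391953 to 92470867 (ENSMUSG00000022951). Its level was 81.8, 123 and 111 CPM in Ang II hearts 1, 2 and 3, against 33.2, 47.8 and 44.3 CPM in control hearts 1, 2 and 3. The lowest Ang II heart was thus above the highest control heart, and the same held on the deposited FPKM scale, with 20.5, 40.6 and 37.2 FPKM in Ang II and 7.92, 16.3 and 13.6 FPKM in control hearts. Mean CPM was 105 ± 21.4 in Ang II and 41.8 ± 7.61 in control hearts (SD, n = 3 each). Its log2 change was 1.34 (SE 0.22), a 2.52-fold difference with a 95% interval of 1.75 to 3.64. In edgeR's quasi-likelihood fit the p was 0.000603, and 0.249 after adjustment over all genes by Benjamini-Hochberg, so the difference did not pass the threshold. It ranked 39th of the 16759 genes by p and 314th by log2 change, so that 1.87% of genes had a log2 change at least as high. Without Ang II replicate 1 the log2 change was 1.49 (SE 0.17) and passed (edgeR adjusted p = 0.039), in a fit that called 0.73% of all genes. Without control replicate 1 it was 1.19 (SE 0.24; adjusted p = 0.684). DESeq2 also called it with all 6 hearts (log2 change 1.35, adjusted p = 4.5e-05). In the same hearts all 8 cardiomyocyte markers had log2 changes above 0 (median 0.28), and 6 of 8 endothelial markers were below 0 (median -0.36). Red blood cell markers summed to 603 to 639 FPKM in Ang II and 1132 to 2011 FPKM in control hearts. The part of these cell type markers in the Rcan1 difference was not tested, and in bulk tissue more cells of a type cannot be told apart from more RNA per cell.

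The mouse Rcan1 gene is transcribed from alternative first exons. The promoter ahead of a downstream first exon is the one described as induced by calcineurin and NFAT, while the upstream start gives a longer protein. RefSeq (GRCm38.p6) places 2 start sites in the promoter table, 66091 bases apart, and both windows are shown because they are the regulatory sequence of the gene with the largest fold among the 9. Each runs from 250 bases before to 50 bases after its start on the minus strand, 5′ to 3′. Capitals mark GGAAA, the core of the NFAT site, and TGANTCA, the AP-1 site, each searched on both strands.
Upstream start, chr16:92466120-92466419: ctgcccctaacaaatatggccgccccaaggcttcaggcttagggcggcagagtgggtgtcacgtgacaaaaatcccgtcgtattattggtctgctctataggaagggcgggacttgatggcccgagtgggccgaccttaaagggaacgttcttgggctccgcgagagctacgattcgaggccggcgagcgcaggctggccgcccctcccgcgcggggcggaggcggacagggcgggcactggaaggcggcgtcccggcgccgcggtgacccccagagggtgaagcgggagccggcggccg
Downstream start, chr16:92400029-92400328: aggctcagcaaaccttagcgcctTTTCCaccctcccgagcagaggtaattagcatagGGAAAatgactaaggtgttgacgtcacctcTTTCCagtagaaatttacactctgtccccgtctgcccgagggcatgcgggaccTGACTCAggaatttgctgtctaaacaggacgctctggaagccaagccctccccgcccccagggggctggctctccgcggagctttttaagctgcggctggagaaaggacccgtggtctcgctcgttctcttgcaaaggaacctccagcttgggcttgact

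The downstream window held 3 copies of GGAAA, with first bases at -227, -193 and -163 relative to the start site, and 1 copy of TGANTCA, with its first base at -110. No copy overlapped another. The upstream window held neither motif and was richer in GC, at 67.7% with 33 CpG, against 56.3% with 14 CpG in the downstream window. Of 32851 promoter windows of the same length, 61.3% held at least 1 GGAAA and 9.42% held at least 3, while 7.81% held TGANTCA. Repeated GGAAA was not particular to Rcan1 among the 9 genes. The Ppp3cb window held 4 copies, as many or more than which were in 2.65% of all windows. A window of Nfatc2 and that of Nfatc4 held 3 copies each, and a window of Rcan2 held 1 TGANTCA. These matches describe letters and are not measured binding sites. Which start gave the Rcan1 reads cannot be read from the table, which has 1 value per gene. For the 7 of the 9 genes with at least 200 counts in every library, Rcan1 included, the length implied by count over FPKM varied by at most 0.349% between libraries, so it carries no isoform signal.

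Rcan2, the second Rcan inhibitor (ENSMUSG00000039601; GRCm38 chromosome 17, 43801351 to 44039060, plus strand), had 43.9, 162 and 135 CPM in Ang II hearts 1, 2 and 3, against 127, 169 and 143 CPM in control hearts 1, 2 and 3. Ang II hearts 2 and 3 lay within the control range and heart 1 was at 0.30 times the control mean. The log2 change was -0.36 (SE 0.45; edgeR adjusted p = 0.855) with all hearts and 0.024 (SE 0.15; adjusted p = 0.963) without Ang II replicate 1. The 95% interval of the fold with all hearts ran from 0.37 to 1.62. Rcan3, a related inhibitor gene, had 224, 341 and 322 counts in Ang II hearts, against 24, 433 and 8 counts in control hearts. Its control hearts differed by more than the groups did (log2 change 1.01, SE 1.13; edgeR adjusted p = 0.848), and without control replicate 2 the log2 change was 3.87.

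Within the Rcan family the make-up was compared by FPKM, which corrects for length and does not depend on how libraries are scaled against each other. Rcan1 made up 70.6%, 51.3% and 53.0% of the summed Rcan1, Rcan2 and Rcan3 FPKM in Ang II replicates 1, 2 and 3, against 27.0%, 27.9% and 30.5% in control replicates 1, 2 and 3. Every Ang II heart was above every control heart. The means were 58.3% ± 10.7 in Ang II and 28.5% ± 1.81 in control hearts (SD, n = 3 each), a difference of 29.8 percentage points with a two-sided exact permutation p of 0.10, the smallest that 3 hearts against 3 can give. In FPKM, Rcan1 was 2.64, 1.08 and 1.16 times Rcan2 in Ang II hearts, against 0.37, 0.40 and 0.44 times in control hearts. In FPKM the order of the 2 inhibitors thus differed between the groups. In CPM, which does not correct for length, Rcan2 was above Rcan1 in every control heart and in Ang II hearts 2 and 3. Rcan2 had 162 and 135 CPM in these Ang II hearts, against 123 and 111 CPM for Rcan1. In Ang II heart 1 Rcan2 had 43.9 CPM, against 81.8 CPM for Rcan1. Without Ang II replicate 1, where Rcan2 was low, the mean share in Ang II hearts exceeded that in control hearts by 23.7 percentage points.

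**Figure D2:**
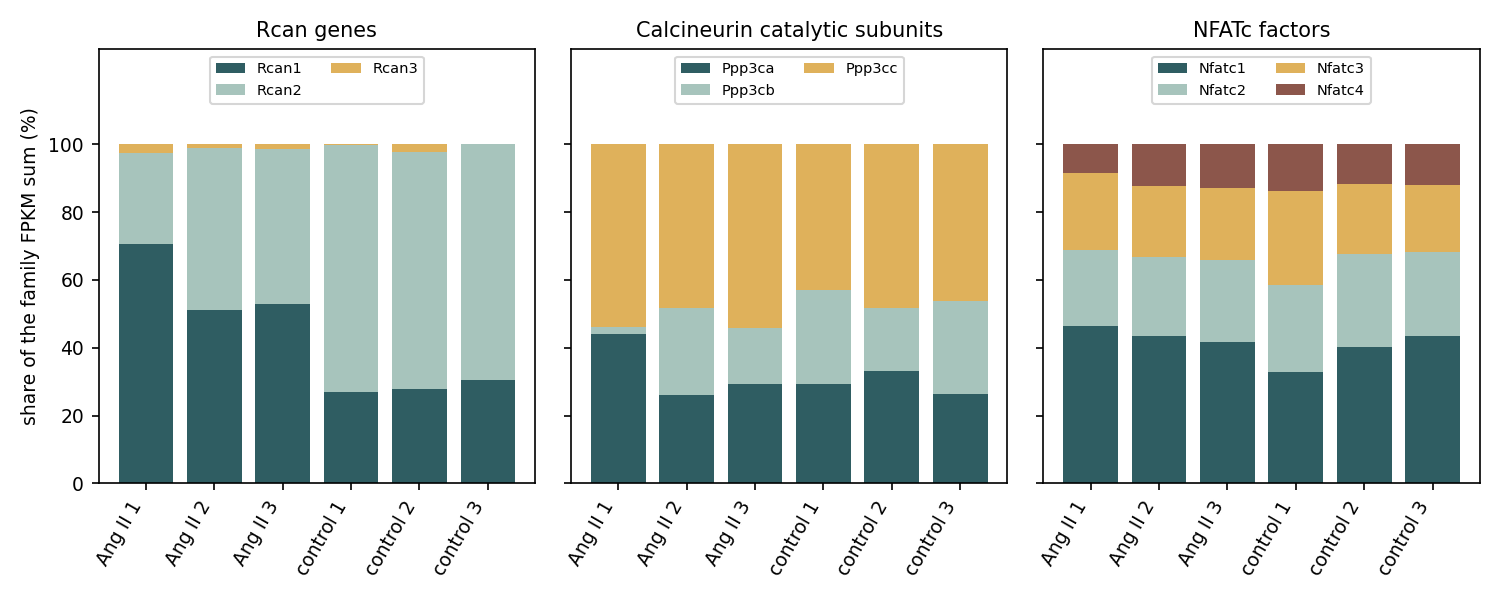
Share of each gene in the summed FPKM of its family, in percent, for each heart, with the 3 Ang II hearts left of the 3 control hearts. Rcan1 takes 51.3% to 70.6% of the Rcan sum in Ang II hearts and 27.0% to 30.5% in control hearts, while Nfatc1 takes 41.7% to 46.3% of the NFATc sum in Ang II hearts and 33% to 43.5% in control hearts.

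The catalytic subunit genes gave differences near the spread between hearts. Ppp3ca, the alpha catalytic subunit (ENSMUSG00000028161; GRCm38 chromosome 3, 136670124 to 136937727, plus strand), had 35.4, 31.8 and 32.0 CPM in Ang II hearts, against 28.0, 30.3 and 28.1 CPM in control hearts. The groups did not overlap in CPM but did in FPKM, with 2.74 to 3.31 FPKM in Ang II and 2.06 to 3.20 FPKM in control hearts. The log2 change was 0.20 (SE 0.13; edgeR adjusted p = 0.757), a 1.15-fold difference with a 95% interval of 0.92 to 1.42, and 0.15 without Ang II replicate 1. Ppp3cb, the beta catalytic subunit, whose deletion in mice blunts cardiac hypertrophy (ENSMUSG00000021816; chromosome 14, 20499364 to 20546573, minus strand), had 1.59, 27.8 and 15.8 CPM in Ang II hearts 1, 2 and 3, with 69 counts in the first, against 23.2, 15.1 and 26.2 CPM in control hearts 1, 2 and 3. Only Ang II replicate 1 lay outside the control range by a wide margin, at 10.5% of the lowest other heart. In that heart 2.51% of all tested genes were as far or farther below the lowest other heart. The log2 change of Ppp3cb was -0.51 (SE 0.83; edgeR adjusted p = 0.895) with that heart and 0.022 (SE 0.32; adjusted p = 0.986) without it.

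Ppp3cc, the gamma catalytic subunit, was not among the 9 but completes the family. It had the highest mean FPKM of the 3 catalytic genes, at 5.15 ± 1.57 FPKM in Ang II and 4.13 ± 0.965 FPKM in control hearts. In CPM, which does not correct for length, its mean was below that of Ppp3ca. The means were 16.1 against 33.1 CPM in Ang II and 13.4 against 28.8 CPM in control hearts. The log2 change of Ppp3cc was 0.26 (SE 0.18, edgeR adjusted p = 0.764). Of the summed catalytic FPKM, Ppp3cb made up 2.14%, 25.8% and 16.4% in Ang II hearts and 27.6%, 18.5% and 27.6% in control hearts. These shares overlapped (difference of -9.82 percentage points, two-sided exact permutation p = 0.20), and the low Ang II mean came from replicate 1. Without it the difference was -3.52 percentage points.

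Ppp3r1, the regulatory B subunit (ENSMUSG00000033953; GRCm38 chromosome 11, 17159263 to 17200375, plus strand), gave no difference past the threshold. Its level was 25.4, 31.0 and 30.0 CPM in Ang II hearts, against 27.7, 28.3 and 28.1 CPM in control hearts. The control values lay between Ang II replicate 1 and the other 2 Ang II hearts, which were above every control heart. The log2 change was 0.039 (SE 0.14; edgeR adjusted p = 0.953) with all hearts, with a 95% interval of the fold from 0.82 to 1.29, and 0.12 (adjusted p = 0.557) without Ang II replicate 1. Ppp3r2, a second B subunit gene known for its expression in testis, had 0 counts in all 6 libraries, which allows up to 3 counts in each. Among these subunit genes, Ppp3r1 shares its span with Wdr92 on the same strand and Ppp3cb with an antisense gene, 1810062O18Rik. Ppp3ca overlaps Gm42822 on its own strand and 2 genes on the other. Rcan1, Rcan2, Nfatc1 and Nfatc3 each overlap 1 gene annotated on the opposite strand. The strandedness of the libraries is not given in the sources used here, so reads of overlapping genes may be split or merged.

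The 4 calcineurin-regulated NFAT genes were low in every heart and gave no difference past the threshold. Nfatc1, known for its role in heart valve development (ENSMUSG00000033016; GRCm38 chromosome 18, 80606205 to 80713071, minus strand), had 13.5, 11.7 and 12.3 CPM in Ang II and 8.60, 11.5 and 14.3 CPM in control hearts. Nfatc3, whose deletion in mice reduces calcineurin-driven hypertrophy (ENSMUSG00000031902; chromosome 8, 106058840 to 106128042, plus strand), had 10.4, 8.86 and 9.87 CPM in Ang II and 11.3, 9.19 and 10.2 CPM in control hearts. The groups overlapped for both genes, with log2 changes of 0.13 (SE 0.21) for Nfatc1 and -0.074 (SE 0.16) for Nfatc3. Nfatc2, best known as the NFAT of T lymphocytes (ENSMUSG00000027544; chromosome 2, 168476410 to 168601632, minus strand), had 9.36, 8.95 and 10.0 CPM in Ang II and 9.43, 11.2 and 11.6 CPM in control hearts. Only Ang II replicate 3 reached into the control range, and the log2 change was -0.18 (SE 0.15; edgeR adjusted p = 0.801). Nfatc4, the factor first linked to calcineurin-driven hypertrophy in mouse heart (ENSMUSG00000023411; chromosome 14, 55823144 to 55833943, plus strand), was the lowest of the 9, at 1.98, 2.63 and 2.99 CPM in Ang II and 2.93, 2.64 and 3.14 CPM in control hearts. Its log2 change was -0.19 (SE 0.23; edgeR adjusted p = 0.854), and -0.046 without Ang II replicate 1, its lowest heart. Without that heart the log2 changes of the other NFAT genes were 0.067 for Nfatc1, -0.18 for Nfatc2 and -0.13 for Nfatc3.

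The intervals bound what these hearts can show for the NFAT genes. The 95% interval of the fold ran from 0.77 to 1.55 for Nfatc1, from 0.68 to 1.13 for Nfatc2, from 0.73 to 1.23 for Nfatc3 and from 0.59 to 1.29 for Nfatc4. A change of 2-fold in either direction lay outside all 4 intervals. Summed over the 4 genes the level was 3.59 ± 0.528 FPKM in Ang II and 3.59 ± 0.885 FPKM in control hearts (SD, n = 3 each). Nfatc1 was the most abundant of the 4 per length, with 43.8% ± 2.31 of the sum in Ang II and 38.9% ± 5.38 in control hearts. Nfatc2 took 22.6% to 24.0% in Ang II and 24.8% to 27.7% in control hearts. These shares did not overlap, and their difference was not tested. The shares of Nfatc1, Nfatc3 and Nfatc4 overlapped between the groups. Nfatc3 took 21.6% ± 0.924 in Ang II and 22.6% ± 4.36 in control hearts (two-sided exact permutation p = 1.0 over 3 against 3). Nfat5, the tonicity-regulated relative that calcineurin does not control, gave a log2 change of -0.19 (SE 0.16; edgeR adjusted p = 0.809).

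**Figure D3:**
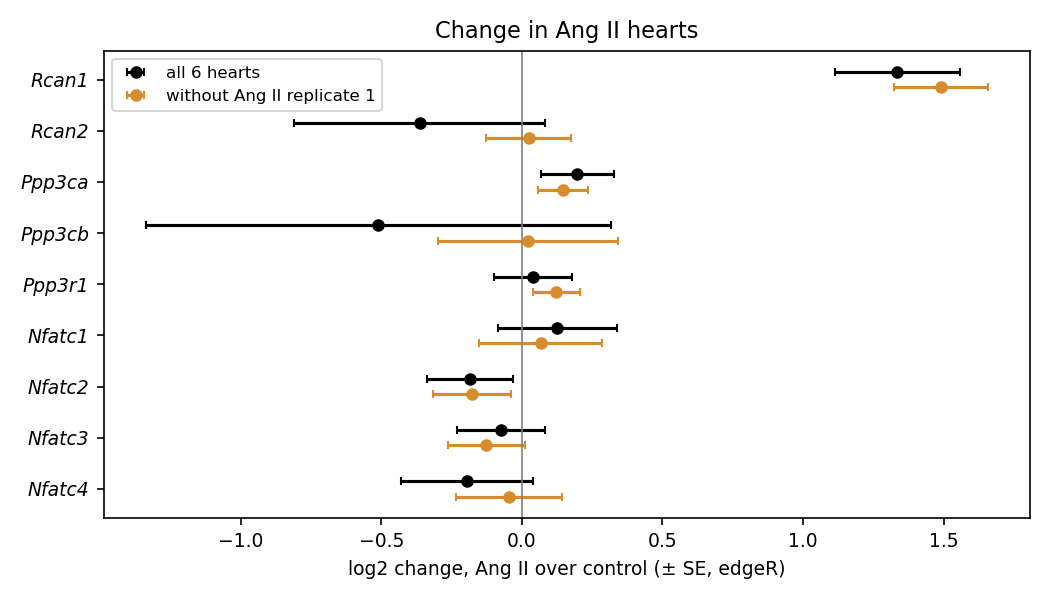
Log2 change of each of the 9 genes, Ang II over control, with its SE from edgeR, for all 6 hearts (black) and without Ang II replicate 1 (orange). Rcan1 lies at 1.34 and 1.49, and the changes of Rcan2 and Ppp3cb, -0.36 and -0.51 with all hearts, are 0.024 and 0.022 without that heart.

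Ordered by FPKM, the highest of the 9 in Ang II hearts was Rcan1, at 32.8 ± 10.7 FPKM, ahead of Rcan2 at 25.8 ± 15.9 FPKM, with ranges that overlapped. In control hearts Rcan2 came first at 31.1 ± 9.69 FPKM, above the range of Rcan1 at 12.6 ± 4.29 FPKM. Ppp3r1 followed in both groups, at 8.49 ± 2.08 FPKM in Ang II and 7.94 ± 1.49 FPKM in control hearts, where its range overlapped that of the gene above it, and the catalytic genes came after it. Nfatc1 at 1.56 ± 0.151 FPKM in Ang II and 1.42 ± 0.510 FPKM in control hearts led the NFAT genes. Nfatc2 and Nfatc3 overlapped each other in both groups, and Nfatc4 was below the range of Nfatc3 in every heart of its group, at 0.410 ± 0.140 FPKM in Ang II and 0.444 ± 0.0758 FPKM in control hearts.

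Around these 9 genes, lists of the pathway's other parts were examined. Over all tested genes 0.0358% passed edgeR's test and 50.9% had a log2 change above 0. In the lists 1 of 61 tested genes passed. It was Xirp1, a protein that binds actin filaments in heart muscle, in a list of 11 tested genes described as raised by calcineurin or NFAT in the heart. In this list 8 of 11 log2 changes were above 0 and the median was 0.71, and 7 genes had an unadjusted p under 0.05, all higher, as 3.57% of all genes were. Xirp1 had 373, 515 and 524 CPM in Ang II and 87.8, 114 and 103 CPM in control hearts (log2 change 2.21, SE 0.21; edgeR adjusted p = 0.0484). It lost the call when any heart other than Ang II replicate 1 was left out, and without that replicate its adjusted p was 0.00488. Acta1, the skeletal alpha-actin of the fetal programme, had a log2 change of 2.07 (SE 0.20; edgeR adjusted p = 0.0517, and 0.00488 without Ang II replicate 1), and Nppa, the atrial natriuretic peptide, 1.31 (SE 0.24; adjusted p = 0.283). These genes respond to several hypertrophic signals and are not specific to calcineurin, and their changes in these hearts were known when the list was drawn up. Edn1, Ptgs2 and Myh7 of the same list had log2 changes of -0.35, -0.20 and -0.12 and did not pass. Trpc6 was too low to test.

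Genes that act on calcineurin or anchor it had 0 of 12 members called by edgeR, where 0.0358% of all tested genes were called. Of their log2 changes 7 were above 0 and 5 below (median 0.17), beside 50.9% above 0 over all tested genes. Akap5, which anchors calcineurin at the membrane, had 1.31, 2.01 and 1.84 CPM in Ang II and 3.83, 4.10 and 3.60 CPM in control hearts. Every Ang II heart was below every control heart, as for 9.21% of all genes. The log2 change was -1.16 (SE 0.24), with an edgeR adjusted p of 0.337. Its unadjusted p in edgeR's test was 0.00195, under 0.05 and lower as for 3.94% of all genes. Lmcd1, a LIM protein described in mouse heart as promoting calcineurin signalling and also held in the cardiac target list, had 30.5, 47.2 and 44.4 CPM in Ang II and 24.2, 20.5 and 21.0 CPM in control hearts. Its groups did not overlap either, with Ang II hearts higher, as for 7.97% of all genes (log2 change 0.89, SE 0.20, edgeR adjusted p = 0.390). Cib1, which tethers calcineurin at the sarcolemma, had a log2 change of 0.56 (SE 0.27; adjusted p = 0.693) with all hearts and 0.25 without Ang II replicate 1. DESeq2 and voom with quality weights called both Akap5 and Lmcd1, and edgeR called Lmcd1 without Ang II replicate 1 (adjusted p = 0.0336).

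Kinases that return NFAT to the cytoplasm had 0 of 12 called by edgeR, where 0.0358% of all tested genes were called. Of their log2 changes 8 were above 0 and 4 below (median 0.070), beside 50.9% above 0 over all tested genes. Dyrk1a, a kinase that primes NFAT for further phosphorylation, had 10.1, 15.2 and 14.9 CPM in Ang II and 24.9, 23.5 and 23.9 CPM in control hearts. Its groups did not overlap, with Ang II hearts lower, as for 9.21% of all genes. Its log2 change was -0.84 (SE 0.19, edgeR adjusted p = 0.392). DESeq2 called it lower (adjusted p = 0.0203), as did voom with quality weights (adjusted p = 0.0233). The casein kinase genes Csnk1a1 and Csnk1d had log2 changes of 0.27 (SE 0.14) and 0.20 (SE 0.18).

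Transcription factors that bind DNA with NFAT had 0 of 11 tested members called by edgeR, where 0.0358% of all tested genes were called. Of their log2 changes 3 were above 0 and 8 below (median -0.26), beside 50.9% above 0 over all tested genes. In CPM the AP-1 genes Fos and Junb had every Ang II heart below every control heart, as 9.21% of all genes did. In FPKM the groups overlapped for Junb. Fos had 0.276, 7.24 and 7.65 CPM in Ang II and 14.8, 63.7 and 43.9 CPM in control hearts (log2 change -3.0, SE 1.06; edgeR adjusted p = 0.586), and without Ang II replicate 1 its log2 change was -2.45 (adjusted p = 0.157). Junb gave -1.18 (SE 0.36; adjusted p = 0.530) and Jun -0.70 (SE 0.33; adjusted p = 0.689) in edgeR. By voom with quality weights Junb was called lower (log2 change -1.49, adjusted p = 0.0320). Gata4, the cardiac partner of NFAT, had a log2 change of -0.26 (SE 0.21). Calmodulin and calcium entry genes had 0 of 11 called by edgeR, DESeq2 or voom. Over all genes these called 0.0358%, 1.65% and 2.08%. Of the 11 log2 changes 4 were above 0 and 7 below, with a median of -0.10. The T-type channel genes Cacna1h and Cacna1g gave -0.66 (SE 0.21; edgeR adjusted p = 0.538) and -0.59 (SE 0.25; adjusted p = 0.662).

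**Figure D4:**
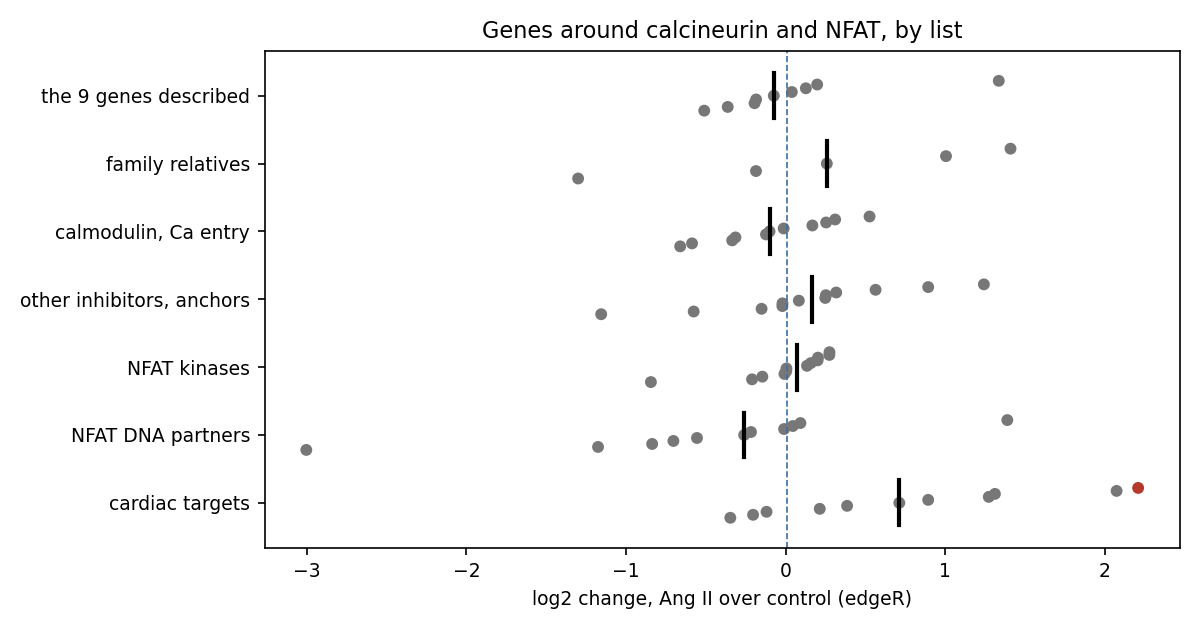
Log2 change, Ang II over control, of every tested gene of the 9 and of 6 lists around them; black bars are list medians and the dashed line is the median of all tested genes. 1 gene passed edgeR's test (Xirp1, red), and Rcan1 is the point at 1.34 in the top row. The cardiac target list has the highest median at 0.71, and changes of its genes in these hearts were known when it was drawn up.

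The genes whose log2 CPM over the 6 hearts followed Rcan1 most closely, among 6724 with a mean of at least 2 FPKM, were Psmd12, Ugp2, Abra, Nrap and Hspb1, with Pearson's r from 0.990 to 0.996. These r describe only 6 hearts in 2 groups and include the difference between the groups. Abra, a stretch-responsive actin-binding protein, had 121 ± 43.8 CPM in Ang II and 20.8 ± 5.45 CPM in control hearts, with a log2 change of 2.54 (edgeR adjusted p = 0.139). Nrap, an anchoring protein of the intercalated disc, had 447 ± 81.5 CPM in Ang II and 247 ± 34.6 CPM in control hearts, and the small heat shock protein gene Hspb1 225 ± 14.9 CPM in Ang II and 137 ± 13.5 CPM in control hearts. None of the 5 passed edgeR's test with all 6 hearts.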

How the data were processed

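The authors' deposited table holds an estimated count and an FPKM value for each gene and library. HISAT2 2.0, StringTie 1.3.0 and Bowtie 0.12.2 are named, without roles, per the submitters' processing notes. Those notes name the build mm8, but 94.2% of 55141 shared gene IDs had GRCm38 coordinates of GENCODE M21. The estimated counts as deposited were whole numbers, and the deposited FPKM values have 0.0001 in place of 0.

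Ang II was compared with control by two-sided quasi-likelihood tests of the counts in edgeR 4.0.16 (R 4.3.3), with its TMM factors and its default filter on low counts, with Benjamini-Hochberg adjustment over 16759 genes. The design assumed raw counts; these are estimates, which edgeR treats as counts. Standard errors were derived from the log2 change and the test statistic. DESeq2 1.42.0 and limma 3.58.1, on log2(FPKM + 0.5) and through voom, were alternatives. The edgeR fit and the limma fit on log2 values were tested on simulated data, and DESeq2 and voom were not. By chi-square no 2 libraries of the same group were alike within counting error, and p-values measure the spread between 3 hearts a group.

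The members and lists were chosen with earlier results of these data known. The rule names all 9 genes, their family relatives, the 3 genes with the smallest p of each list and the 5 genes most like Rcan1; 1 of the list genes is not reported here, and Edn1, Ptgs2, Myh7, Gata4 and Trpc6 were named after their values were seen. Promoter windows came from RefSeq (GRCm38.p6), which matched 7 of the 9 genes; motifs are GGAAA and TGANTCA.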

Additional observations from a re-analysis of the deposited data

How the results depend on the processing

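Rcan1 kept a positive log2 change in each of the 18 alternatives, from 1.19 to 1.49, and passed in 3 of them: DESeq2, voom with quality weights (adjusted p = 0.00974) and without Ang II replicate 1. Of the 9 genes, 1 was called in each of these 3 and 0 in the others. Voom gave Ang II replicate 1 a low weight (0.148), so its calls are not separate from the fit without that heart. Over all genes 6 were called, against 12 with no filter, 11 with 10 counts in every library of a group, 276 by DESeq2, 348 by voom with quality weights, and 3, 2, 3 and 1 by limma with pseudocounts of 0.5, 0.1 and 1 and with no filter. Of the pathway genes 1 was called, against 2 with median-of-ratios or upper-quartile scaling, without mitochondrial genes and copies, or with either count filter. It was 7 by DESeq2, 10 by voom and 0 by limma at each of its settings. Leaving out 1 heart at a time gave 0 to 129 calls over all genes, 0 to 1 of the 9 and 0 to 5 pathway genes; the highest counts came without Ang II replicate 1. Leaving out 1 heart gave log2 changes from -0.71 to 0.024 for Rcan2, -1.30 to 0.022 for Ppp3cb, -0.017 to 0.12 for Ppp3r1, -0.043 to 0.31 for Nfatc1 and -0.15 to 0.0046 for Nfatc3; the cause was not tested. The differences in the shares of Rcan1, Ppp3cb and Nfatc3 moved by less than the larger group SD in each alternative. Several moved by more than the smaller group SD. That of Rcan1 did so without any of the Ang II hearts and with CPM in place of FPKM. That of Ppp3cb did so without Ang II replicate 1 and without Ang II replicate 2. The Nfatc3 difference of -0.939 percentage points was 1.57, -2.02 and -2.37 without control replicates 1, 2 and 3, each also a move above the smaller group SD. Deviations from the group mean correlated at 0.08, 0.11 and -0.04 for same-numbered hearts, and from -0.13 to 0.076 for differently numbered hearts. Deviations of 3 hearts from their own mean depend on each other, so these values cannot decide whether the replicate numbers pair the hearts. With the replicate number as a block, edgeR called 0 genes over all, 0 of the 9 and 0 pathway genes. With 3 hearts a group, the spread between hearts limits these results, and the part of sequencing depth was not tested.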
